A study of Mus musculus with 15 samples.

Results

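The mir-17-92 cluster and its paralogues were followed in the left ventricle (LV) as every 5p and 3p row of the precursors mir-17, mir-18a, mir-18b, mir-19a, mir-20a, mir-20b, mir-25, mir-92a-1, mir-92a-2, mir-92b, mir-93, mir-106a, mir-106b and mir-363. This rule, which uses names and no measured value, took 28 of the 1836 rows of the count table and 14 of its 918 precursors. Of the 16 precursors that the rule names, mir-19b-1 and mir-19b-2 were not analysed here. A row is a mature miRNA cut from the 5p or the 3p arm of a hairpin precursor, and a number after the name (mir-92a-1, mir-92a-2) marks separate genes for an identical or near-identical mature miRNA.

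MiRNA sequencing of LV tissue was available for 15 mice in 3 groups of 5. Mice 1 to 5 were wild type (wt). Mice 6 to 10 lacked L-arginine:glycine amidinotransferase (AGAT-/-), the enzyme that makes homoarginine (hArg) and the precursor of creatine. Mice 11 to 15 carried the same deletion and received hArg for 4 weeks from osmotic mini pumps (AGAT-/-hArg). All were littermates from crosses of heterozygous animals on a C57BL/6J background. No pump is described for the unsupplemented groups, and the age of the animals is not given in the sources used here. The library names place wt and AGAT-/- on lane 8 and AGAT-/-hArg on lane 2, and with this lane is confounded with supplementation, so that the pair cannot be told apart. The libraries held between 365634 and 570492 reads with a median of 445454, and miRNA counts do not measure Gatm, the deleted gene. Of the cardiomyocyte miRNAs, the 3p rows of mir-1a-1, mir-1a-2, mir-133a-1, mir-133a-2, mir-208a and mir-208b were at 0 in every library, whereas the other 8 cardiomyocyte rows, among them mir-499-5p, summed to between 1795 and 2495 CPM (reads relative to the library total, adjusted with TMM factors). The labelled tissue was therefore checked on part of its defining markers only.

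The mir-17-92 cluster is a polycistronic transcript, induced by the transcription factor Myc and long known for driving cell proliferation, and deletion or excess of it in mice affects growth of the heart. Its members fall into families by the seed, the bases near the 5' end with which a miRNA pairs to its targets, and gene duplication has given mammals the related units mir-106a-363 and mir-106b-25. From each hairpin usually 1 arm is kept as the guide strand, and the other arm, the passenger, is mostly degraded. For most of these precursors the textbook guide is the 5p arm of mir-17, mir-18, mir-20, mir-93 and mir-106 and the 3p arm of mir-19, mir-25, mir-92 and mir-363.

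In the RefSeq annotation of GRCm38.p6 the mir-17-92 hairpins lie within 836 bases at chr14:115043671-115044506 on the plus strand, all inside an exon of the lincRNA gene Mir17hg. The mir-106a-363 hairpins lie within 875 bases at chrX:52741693-52742567 on the minus strand, where only mir-106a is partly covered by exons of the processed transcript Kis2. The mir-106b-25 hairpins lie within 498 bases at chr5:138165321-138165818 on the minus strand inside Mcm7, which codes for a subunit of the DNA replication helicase. There mir-106b is intronic, and mir-93 and mir-25 fall in an exon of 1 of 3 overlapping Mcm7 transcripts. mir-92b stands alone at chr3:89227116-89227198 on the minus strand, with no other annotated gene over it.

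Mature sequences from RefSeq were matched to 26 of the 28 rows and held 14 different seeds (bases 2 to 8, in capitals), of which 4 were shared by more than 1 row. The sequences of the seed group that held nearly all of the reads are given here, with the reads of each row over the 15 libraries in the text that follows.
mir-92a-1-3p: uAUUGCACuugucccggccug
mir-92a-2-3p: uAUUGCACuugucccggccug
mir-25-3p: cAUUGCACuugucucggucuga
mir-363-3p: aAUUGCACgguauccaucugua
mir-92b-3p: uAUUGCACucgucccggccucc
The mature sequences of mir-92a-1-3p and mir-92a-2-3p are identical over all 21 bases. mir-92b-3p differs from them by U10C and G21C over those 21 bases (positions counted from 1 at the 5' end, the base of mir-92a-3p given before the position and that of mir-92b-3p after it). The identity of the pair runs to 22 genomic bases beyond which the hairpins differ, as shown by the shared stretch in capitals with 4 flanking bases of each hairpin on either side.
mir-92a-1: uaugGUAUUGCACUUGUCCCGGCCUGuuga
mir-92a-2: uaaaGUAUUGCACUUGUCCCGGCCUGagga
This group held 50317 of the 53887 reads of all members, 10919 on mir-92a-1-3p and 39398 on mir-92a-2-3p, and its other 3 rows, mir-25-3p, mir-363-3p and mir-92b-3p, were at 0 in every library. Reads of the shared stretch cannot be assigned to a locus by sequence, and the sources used here do not give the treatment of reads with several matches.

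The seed that gives the cluster its best known family held almost no reads. Of its 6 rows the following pair is shown, because it differs by a single base and by its reads, together with the other member rows with the most reads and mir-20b-3p, which shares the seed of mir-17-3p.
mir-17-5p: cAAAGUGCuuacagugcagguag
mir-106a-5p: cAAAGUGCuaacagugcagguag
mir-17-3p: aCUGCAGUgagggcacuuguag
mir-20b-3p: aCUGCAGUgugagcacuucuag
mir-20a-3p: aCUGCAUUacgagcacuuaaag
mir-18a-3p: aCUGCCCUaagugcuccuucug
mir-92a-1-5p: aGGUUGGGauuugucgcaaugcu
mir-17-5p and mir-106a-5p differ by U10A alone over 23 bases (mir-17-5p before the position, mir-106a-5p after). mir-17-5p was at 0 in all 15 libraries and mir-106a-5p held 22 reads, with 0 to 3 in any library. The other rows with the AAAGUGC seed, mir-20a-5p, mir-20b-5p, mir-93-5p and mir-106b-5p, were at 0. The CUGCAGU seed of the 3p arms held 1945 reads, 1942 on mir-17-3p and 3 on mir-20b-3p, a pair that differs by A10U, G12A and G19C.

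Of the 12 precursors with reads, 8 had them only on the arm opposite to the textbook guide, and mir-92a-1, mir-92a-2, mir-106a and mir-18b had reads on the guide arm. Several of these rested on few reads over the 15 libraries, with 3, 3, 1 and 3 for mir-20b, mir-363, mir-92b and mir-18b and 22 for mir-106a. In all, 13 rows had at least 1 read and 15 were at 0 in every library, 53.6% of the member rows against 36.6% of all 1836 rows. Only mir-92a-1 had reads on both arms, 11 precursors had them on 1 arm, and mir-93 and mir-106b had none, compared with 357, 450 and 111 precursors among all 918. The rows at 0 were the 5p arms of mir-17, mir-18a, mir-20a, mir-20b, mir-92a-2, mir-93 and mir-106b and the 3p arms of mir-18b, mir-19a, mir-25, mir-92b, mir-93, mir-106a, mir-106b and mir-363. A count of 0 allows up to 3 reads, which corresponds to between 5.26 and 8.20 CPM per library and covers counting error only. Since the 3p rows of the cardiomyocyte miRNAs mir-1a and mir-133a were at 0 in the same libraries, a 0 here is given as a listed value and not as a level in the tissue.

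**Figure D1:**
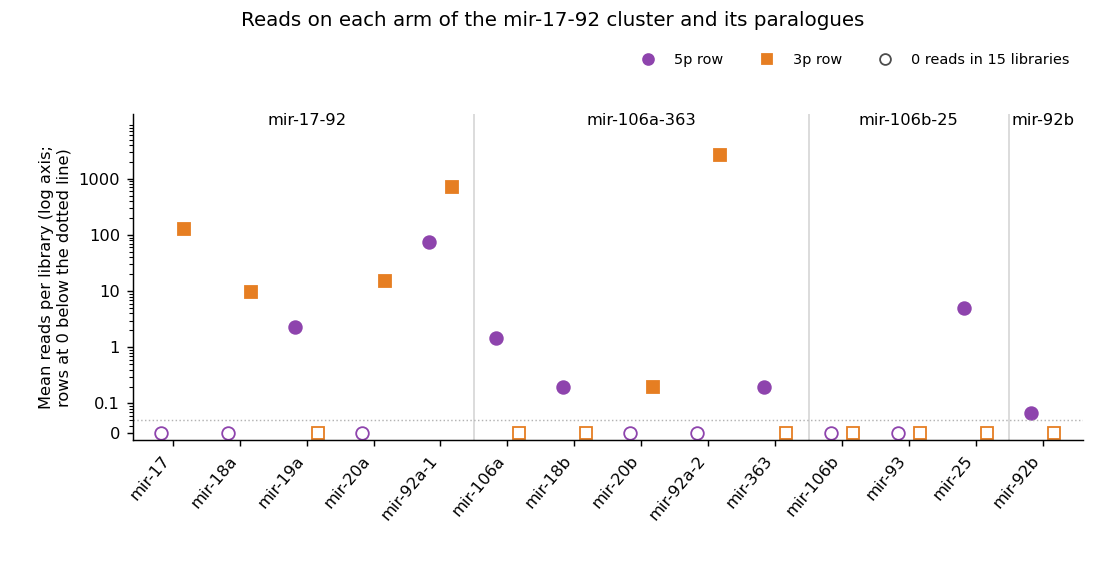
Mean reads per library (log axis) of the 5p rows (circles) and 3p rows (squares) of the 14 precursors, ordered by genomic unit, with open symbols below the dotted line for rows at 0 in all 15 libraries. The 3p rows of mir-92a-1 and mir-92a-2 stand above all others, and mir-92a-1 is the only precursor with filled symbols for both arms.

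As counted, the units differed in how their reads were spread. The identical mir-92a-3p reads cannot be assigned to mir-17-92 or mir-106a-363 by sequence, so the totals of these units depend on how such reads were divided. mir-17-92 held 14383 reads on 6 of its 10 rows, and 3464 of these on 5 rows remained without mir-92a-1-3p. mir-106a-363 held 39429 reads on 5 of its 10 rows, but only 31 of them lay outside mir-92a-2-3p, namely the 22 of mir-106a-5p and 3 each on mir-18b-5p, mir-20b-3p and mir-363-5p. mir-106b-25 held 74 reads, all on mir-25-5p, and mir-92b held 1 read on its 5p row. Members together made up 0.790% of all reads and between 0.556% and 0.981% of a library.

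Among all 1836 rows as counted, mir-92a-2-3p was the 10th and mir-92a-1-3p the 33rd most abundant by mean CPM, ranks that depend on how their identical reads were divided. mir-17-3p followed at rank 82, mir-92a-1-5p at 108, mir-20a-3p at 200, mir-18a-3p at 233, mir-25-5p at 298, mir-19a-5p at 403 and mir-106a-5p at 492. CPM were compared between rows without a division by length, since the mature sequences are between 21 and 24 bases long. Each of the 4 most abundant rows was higher than the next in 15 of 15 libraries with ranges that did not overlap. The ratios of their means to the next row were 3.58 for mir-92a-2-3p, 5.60 for mir-92a-1-3p, 1.73 for mir-17-3p and 4.94 for mir-92a-1-5p. From mir-20a-3p downwards the ranges of neighbours overlapped, and the order held in 11, 13, 12 and 9 of 15 libraries.

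mir-92a-3p, known as a repressor of vessel growth and for its presence in red blood cells, was described by each of its rows. In mice 1 to 5 (wt) mir-92a-2-3p reached 7063, 4938, 5902, 4344 and 6437 CPM. AGAT-/- mice 6 to 10 had 5199, 6786, 5329, 6350.4 and 5562 CPM. In AGAT-/-hArg mice 11 to 15 the levels were 5852, 6036, 6093, 4508 and 5228 CPM. The highest and the lowest of all 15 values both belonged to wt mice, 1 and 4, and the 3 groups overlapped. On the row of mir-92a-1-3p the wt mice had 1946, 1431, 1501, 1366 and 1739.8 CPM in the same order. The AGAT-/- mice had 1603, 1694, 1592, 1675 and 1693 CPM. For the AGAT-/-hArg mice 1485, 1615, 1633, 1387 and 1529 CPM were counted. Here too wt mice 1 and 4 held the extremes, and the AGAT-/- values lay inside the range of the wt values. The means were 5737 ± 1102, 5845 ± 690.1 and 5543 ± 673 CPM for mir-92a-2-3p and 1597 ± 241, 1652 ± 50.1 and 1530.0 ± 100.3 CPM for mir-92a-1-3p in wt, AGAT-/- and AGAT-/-hArg (SD, n = 5 each).

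The passenger arms of the cluster followed at lower levels. mir-17-3p, from the first hairpin of the cluster, had 337, 229.6, 234, 266 and 269 CPM in wt mice 1 to 5. Its levels were 299, 273, 298, 265 and 285 CPM in AGAT-/- mice and 287, 281, 320.1, 303 and 321 CPM in AGAT-/-hArg mice. wt mouse 1 was again the highest, 4 of the 5 wt mice were at or below 269 CPM, and the groups overlapped. mir-92a-1-5p, the arm opposite to mir-92a-1-3p, had 149, 169, 129.8, 182 and 212 CPM in wt mice. The AGAT-/- mice had 116, 158, 156, 213 and 181 CPM and the AGAT-/-hArg mice 166, 151, 141, 194.9 and 149.5 CPM. Its highest and lowest values both belonged to AGAT-/- mice, 9 and 6, so that wt mouse 1, highest for its partner arm, was not highest here.

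mir-20a-3p and mir-18a-3p rested on few reads. mir-20a-3p had 19.7, 35.1, 14.7, 53.2 and 29.6 CPM in wt mice, 53.0, 31.2, 10.9, 25.0 and 44.0 CPM in AGAT-/- mice and 35.4, 24.6, 44.7, 38.5 and 39.9 CPM in AGAT-/-hArg mice, from 4 to 22 reads a library. The AGAT-/-hArg values lay inside the range of either other group. mir-18a-3p had 35.03, 16.4, 27.2, 15.2 and 27.1 CPM in wt mice, 43.4, 20.8, 19.2, 12.5 and 13.9 CPM in AGAT-/- mice and 16.6, 34.5, 14.1, 10.3 and 5.98 CPM in AGAT-/-hArg mice, from 3 to 21 reads. A single mouse stood high in each of the supplemented and unsupplemented AGAT-/- groups, mouse 12 and mouse 6. Of the remaining rows, mir-25-5p held 1 to 13 reads a library with means of 7.93 ± 4.71, 10.3 ± 2.81 and 14.1 ± 11.9 CPM in wt, AGAT-/- and AGAT-/-hArg. mir-19a-5p held 0 to 4 reads with means of 3.59 ± 2.45, 7.10 ± 1.77 and 4.29 ± 2.77 CPM. mir-106a-5p had means of 3.14 ± 1.96, 2.95 ± 2.25 and 3.77 ± 3.41 CPM (SD, n = 5 each), at or under the floor of 3 reads in every library.

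**Figure D2:**
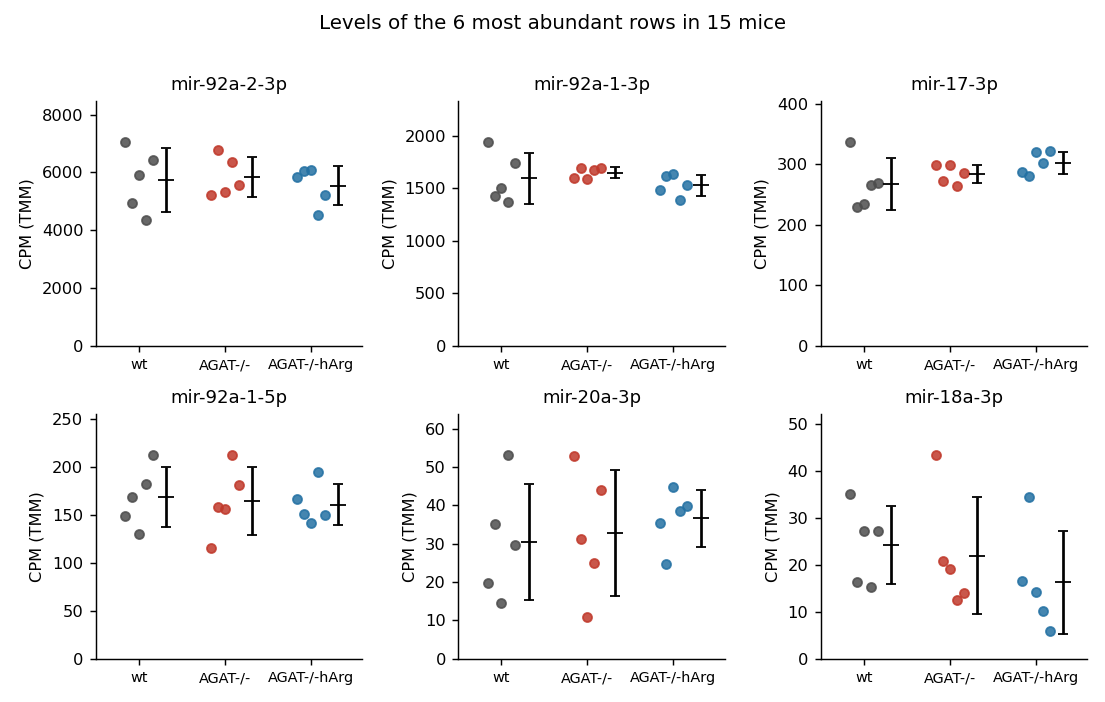
Level in CPM (TMM, axes from 0) of the 6 most abundant rows in each of 15 mice, with the mean and SD of each group of 5 to the right of its points. The groups overlap in every panel, and wt mice span 4344 to 7063 CPM for mir-92a-2-3p.

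The spread between mice was wider than counting alone gives for the abundant rows. The coefficient of variation over 15 mice was 13.9% for mir-92a-2-3p and 9.49% for mir-92a-1-3p, where the read numbers alone would give 1.95% and 3.71%. For mir-17-3p it was 10.6% against 8.79%, and for mir-92a-1-5p 17.02% against 11.6%. For mir-19a-5p and mir-106a-5p the observed 54.0% and 74.5% stood beside 66.4% and 82.6% from counting, and at means of 2.27 and 1.47 reads a library differences between mice were not detectable.

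AGAT-/- mice were compared with wt mice to ask whether loss of the enzyme altered these miRNAs. None of the 9 members with more than 10 reads differed at an FDR of at most 0.05 in edgeR, in DESeq2 or at an unadjusted p below 0.05 in either tool, and the lowest FDR was 0.615. Among all 562 miRNAs tested, 2.14% were called (12 miRNAs), and 60 had an unadjusted p below 0.05. mir-92a-2-3p had a log2 fold change of 0.01 (SE 0.12), with a 95% interval of 0.85 to 1.19 for the fold, and mir-92a-1-3p one of 0.03 (SE 0.10), with an interval of 0.89 to 1.18. With the reads of both rows summed, mir-92a-3p had a log2 fold change of 0.03 (SE 0.11) and an interval of -0.20 to 0.27 on the log2 scale. These intervals were not adjusted for the number of rows. mir-17-3p had a log2 fold change of 0.07 (SE 0.12), mir-92a-1-5p of -0.04 (SE 0.17), mir-20a-3p of 0.13 (SE 0.36) and mir-18a-3p of -0.18 (SE 0.35). The largest estimate was that of mir-19a-5p, 0.87 (SE 0.53, edgeR FDR 0.615), on 0 to 3 reads in wt and 2 to 4 reads in AGAT-/- libraries. mir-25-5p of the Mcm7 unit had 0.40 (SE 0.42). Without mir-106a-5p, which held at most 3 reads in every library, 6 of 8 estimates were higher and 2 lower with a median of 0.05, beside a median of -0.04 over all miRNAs tested. Both mir-92a-3p rows, which share their sequence and are not independent, count in this tally and in those of the comparisons below. No member had groups that did not overlap, beside 3.38% of all miRNAs tested.

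The question of hArg dependence was addressed by comparing AGAT-/-hArg with AGAT-/- mice, which also differ by lane. Again no member passed the FDR in edgeR or DESeq2 or had an unadjusted p below 0.05 in either tool, with a lowest FDR of 0.876, whereas 0.690% of all 580 miRNAs were called (4 miRNAs) and 43 had an unadjusted p below 0.05. mir-92a-1-3p had a log2 fold change of -0.10 (SE 0.08) and an interval of 0.83 to 1.05 for the fold. For mir-92a-2-3p the values were -0.07 (SE 0.10) and 0.83 to 1.10, and for both rows summed -0.09 (SE 0.09) on the log2 scale. mir-17-3p had 0.10 (SE 0.11), mir-92a-1-5p -0.04 (SE 0.16), mir-20a-3p 0.14 (SE 0.29), mir-18a-3p -0.33 (SE 0.41) and mir-25-5p 0.40 (SE 0.49). mir-19a-5p had -0.72 (SE 0.53). The median of these 8 rows was -0.05 with 3 higher and 5 lower, beside 0.01 over all miRNAs tested, and all groups overlapped, beside 2.41% of all miRNAs that did not. The estimates on few reads had wide intervals, from -0.62 to 1.42 on the log2 scale for mir-25-5p, which includes a 2-fold increase.

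AGAT-/-hArg mice were also set against wt mice, a comparison that differs in genotype, supplementation and lane and shares its samples with the comparisons above. No member was called by either tool or had an unadjusted p below 0.05, the lowest FDR being 0.651, while 2.99% of all 569 miRNAs passed (17 miRNAs) and 71 had an unadjusted p below 0.05. mir-92a-2-3p had a log2 fold change of -0.05 (SE 0.12) with an interval of 0.81 to 1.152 for the fold, and mir-92a-1-3p one of -0.06 (SE 0.11) with an interval of 0.82 to 1.12. mir-17-3p had 0.18 (SE 0.13), mir-92a-1-5p -0.07 (SE 0.15) and mir-20a-3p 0.27 (SE 0.29). For mir-18a-3p the estimate was -0.50 (SE 0.38) and for mir-25-5p 0.79 (SE 0.55). DESeq2 gave no FDR for mir-25-5p in this comparison, so that tool could not call it. mir-19a-5p and mir-106a-5p held at most 3 reads in every library of this comparison, and no fold is given for them. The median of the other 7 rows was -0.05 with 3 higher and 4 lower, beside 0.01 over all miRNAs tested, and all groups overlapped, beside 3.87% of all miRNAs that did not. When libraries were scaled by total counts in place of TMM, the median of all miRNAs in this comparison shifted by 0.11 on the log2 scale and the signs of mir-92a-2-3p, mir-92a-1-3p and mir-92a-1-5p turned, without a call.

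**Figure D3:**
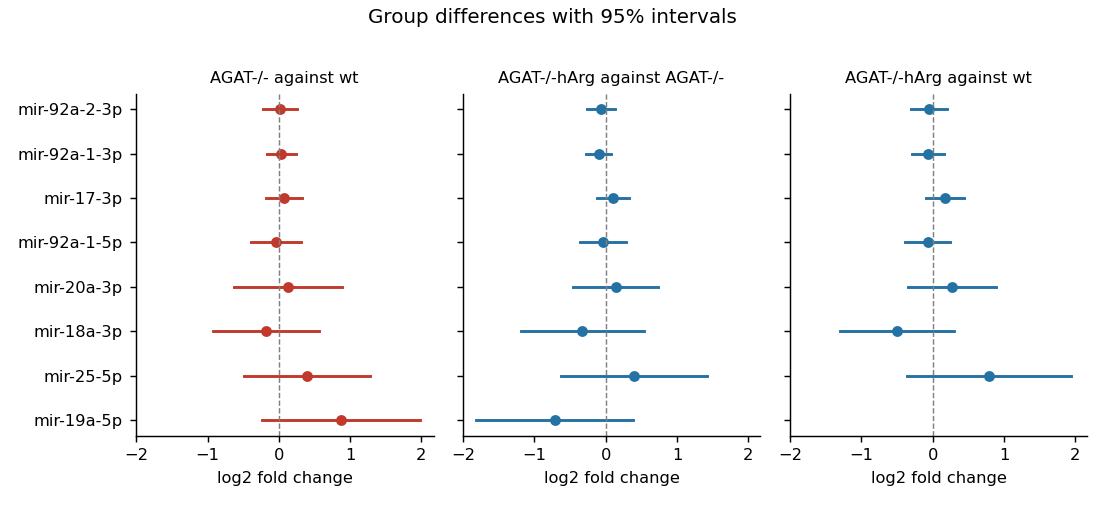
Log2 fold changes (points) and unadjusted 95% intervals (lines) of 8 member rows in the 3 comparisons, ordered by abundance, with no point where every library of a comparison held at most 3 reads (mir-19a-5p in the right panel). Every interval includes 0, and the intervals of mir-92a-2-3p, mir-92a-1-3p and mir-17-3p are the narrowest of each panel.

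mir-92a-1 was the only precursor with reads on both of its rows. As counted on these rows, its 5p share of reads was 9.41% ± 1.69 over 15 mice (SD), ranged from 6.73% in AGAT-/- mouse 6 to 12.3% in AGAT-/-hArg mouse 14, and would vary by 1.05 percentage points from counting alone. The share was 9.65% ± 2.01 in wt, 9.02% ± 1.65 in AGAT-/- and 9.56% ± 1.72 in AGAT-/-hArg (SD, n = 5 each). AGAT-/- and wt differed by -0.63 percentage points (exact permutation test, two-sided, p = 0.611), AGAT-/-hArg and AGAT-/- by 0.55 points (exact permutation p = 0.603) and AGAT-/-hArg and wt by -0.09 points (exact permutation p = 0.952). Adjusted over these 3 tests the values were 0.917, 0.917 and 0.952, where the smallest raw p that the design allows is 0.0079. This share depends on how the identical 3p reads were divided between mir-92a-1 and mir-92a-2. With the 3p reads of both rows in the denominator, a choice made after seeing the data, the 5p share was 2.24% ± 0.50 over 15 mice (SD), and the differences in the same order were -0.17, 0.12 and -0.05 points (exact permutation p = 0.627, 0.746 and 0.905).

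The reads of the identical mir-92a-3p rows were divided between them in a similar ratio in every mouse. In all 15 mice more reads stood on mir-92a-2-3p, with a ratio between 3.18 and 4.01 and a mean of 3.58 ± 0.28 (SD, n = 15). The mir-92a-1 row held 21.9% ± 1.35 of these reads, from 20.0% in AGAT-/- mouse 7 to 23.9% in wt mouse 4, while counting alone would give an SD of 0.733 points. Its group means were 21.9%, 22.2% and 21.7% in wt, AGAT-/- and AGAT-/-hArg, with exact permutation p-values of 0.802, 0.698 and 0.794 for AGAT-/- against wt, AGAT-/-hArg against AGAT-/- and AGAT-/-hArg against wt. This share was examined after its values were seen.

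Relations across the 15 mice were likewise examined after the values were seen, 13 in all, over the 5 rows with a mean of at least 10 reads and a pair of red blood cell miRNAs. mir-92a-2-3p and mir-92a-1-3p moved together (Pearson r = 0.85, permutation p = 3e-05, adjusted 0.00039, and Spearman rho = 0.86, permutation p = 9e-05, adjusted 0.0012). Without the 2 mice farthest from the median r was 0.77, and within the 10 mice of lane 8 it was 0.86, while lane 2 holds too few libraries for a value of its own. Since the rows share their sequence, this pair is not a relation between independent measurements. None of the other 9 pairs passed at an adjusted p of 0.05. mir-92a-1-3p and mir-17-3p, from the last and the first hairpin of the same cluster, had r = 0.41 (permutation p = 0.127, adjusted 0.329) and rho = 0.19 (permutation p = 0.487, adjusted 0.791), with r = 0.72 within lane 8 but 0.09 without the 2 farthest mice. For the 2 arms of mir-92a-1, mir-92a-1-3p and mir-92a-1-5p, the values were r = -0.04 (permutation p = 0.885, adjusted 0.987) and rho = -0.06 (permutation p = 0.821, adjusted 0.944).

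In mice with more mir-92a-3p over both rows, a smaller share of its reads stood on the mir-92a-1 row, with r = -0.72 (permutation p = 0.00258, adjusted 0.011) and rho = -0.71 (permutation p = 0.00387, adjusted 0.017). The value was -0.76 without the 2 farthest mice and -0.73 within lane 8. The share is built from the same reads as the level, so these measures are not independent. The level of mir-92a-3p was also lower in mice with more mir-486a-5p, a miRNA abundant in red blood cells and in muscle, with r = -0.79 (permutation p = 0.00043, adjusted 0.0028) and rho = -0.76 (permutation p = 0.0013, adjusted 0.0085). There r was -0.69 without the 2 farthest mice and -0.81 within lane 8. wt mouse 1, at 9009.6 CPM of mir-92a-3p, had 2645 CPM of mir-486a-5p, and wt mouse 4, at 5709.6 CPM, had 3809 CPM. With mir-144-5p, another red blood cell miRNA, mir-92a-3p showed no relation past the test (r = -0.01, permutation p = 0.973, adjusted 0.987, and rho = 0.02, permutation p = 0.944, adjusted 0.944). The other red blood cell rows with reads, mir-486a-3p, mir-486b-5p and mir-486b-3p, were not set against mir-92a-3p.

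**Figure D4:**
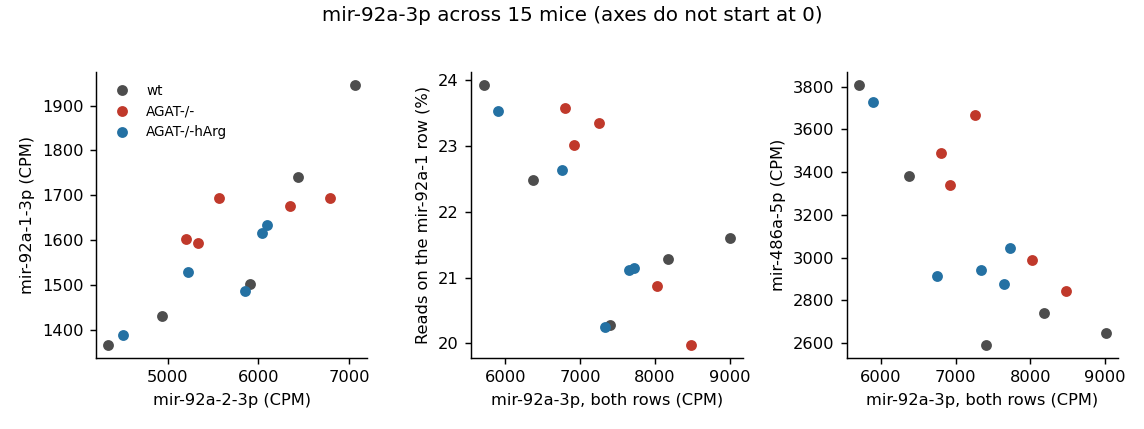
Each point is 1 of 15 mice, coloured by group, on axes that do not start at 0. Left, mir-92a-1-3p against mir-92a-2-3p in CPM (r = 0.85). Middle, the percentage of mir-92a-3p reads on the mir-92a-1 row against the summed level (r = -0.72). Right, mir-486a-5p against the summed level (r = -0.79).

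Myc, which induces mir-17-92, represses another set of miRNAs, listed here as 23 precursors (mir-15a, mir-16-1, mir-22, mir-23, mir-26, mir-29, mir-30, mir-34a, mir-146a, mir-150, mir-195a and mir-497a genes). Of these precursors mir-26a-1, mir-29c, mir-30a and mir-30c-1 were not analysed here. The 38 rows of the others were counted beside the cluster, and 20 of the rows were at 0. None of the 16, 17 and 17 rows tested was called higher or lower in AGAT-/- against wt, AGAT-/-hArg against AGAT-/- or AGAT-/-hArg against wt, beside 2.14%, 0.690% and 2.99% of all miRNAs tested. At an unadjusted p below 0.05 there were 1, 3 and 1 of these rows, beside 10.7%, 7.41% and 12.5% of all miRNAs tested. The medians of their log2 fold changes were -0.03, 0.01 and -0.00, close to those of all miRNAs tested. The lowest FDR in each comparison belonged to mir-29a-3p, a regulator of collagen genes (log2 fold change -0.34, SE 0.13, edgeR FDR 0.289), and to mir-150-3p of lymphocytes (-0.63, SE 0.23, edgeR FDR 0.338, and -0.64, SE 0.27, edgeR FDR 0.3004). The study itself, with DESeq2, reported mir-30b-5p, mir-30d-3p and mir-30d-5p as higher in AGAT-/- than in wt at the same FDR threshold. For miR-30b it gave the same direction by qPCR. Only 16 of the 38 rows were tested in AGAT-/- against wt, so a row without a call may be a row that was not tested. The reason for the difference between the study's calls and the counts above was not tested.

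In bulk tissue, fewer cells of a type and less of a miRNA per cell cannot be told apart, so markers of the cell types of the LV were set beside the cluster. The red blood cell rows, of which mir-144-3p and both arms of mir-451a were at 0, summed to 6542 to 7937 CPM in wt, 6411 to 8046 in AGAT-/- and 6416 to 8009 in AGAT-/-hArg mice. The endothelial rows of mir-126a and mir-126b summed to 12.7 to 29.3, 8.33 to 28.9 and 12.5 to 25.6 CPM. Like the rows at 0, these low sums are given as listed values and not as a level in the tissue. Of the 4 endothelial rows, 1, 2 and 2 were tested in the comparisons as ordered above. The smooth muscle rows of mir-143 and mir-145a, with mir-143-3p at 0, summed to 9463 to 11910.0, 10505 to 13939.9 and 9857 to 16705 CPM. The leukocyte rows, with 3 of 8 at 0, summed to 2559 to 3208, 2642 to 3131 and 2789 to 3469 CPM, and the cardiomyocyte rows to 1795 to 2106, 1923 to 2495 and 1998 to 2375 CPM. In AGAT-/-hArg against wt, 8 cardiomyocyte, 2 endothelial, 2 smooth muscle, 5 red blood cell and 4 leukocyte rows were tested. Over the 5 lists and all comparisons only mir-499-5p of cardiomyocytes was called, beside 2.14%, 0.690% and 2.99% of all miRNAs tested. The call of mir-499-5p was in AGAT-/-hArg against wt mice, with a log2 fold change of 0.43 (SE 0.10, edgeR FDR 0.0129). In AGAT-/- against wt, without hArg, its estimate was 0.36 (SE 0.10, edgeR FDR 0.065). There the study itself reported mir-499-5p as higher in AGAT-/- mice. The ranges of the 5 lists overlapped between groups as those of the mir-17-92 members did, and the part of cell composition in the members' levels was not tested.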

How the data were processed

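The authors prepared small RNA libraries (TruSeq) from LV total RNA, sequenced them on a HiSeq instrument and mapped the reads to miRBase miRNAs with the CLC Genomics Workbench, and the deposited values are raw read counts per mature miRNA. The processing notes of the labels name GRCm38. The miRBase release, the mismatches allowed and the treatment of reads matching several miRNAs are not given in the sources used here. Every column of the table belonged to a labelled mouse. Groups followed the labels, and mice are the replicates. Replicate pairs differed by more than sampling noise (chi-square divided by its degrees of freedom 2.61 to 17.5 over 30 pairs).

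Rows with more than 10 reads over the 10 libraries of a comparison were tested with edgeR 4.0.16 in R 4.3.3 (TMM, glmQLFit, glmQLFTest) and adjusted over all of them (Benjamini-Hochberg, FDR of at most 0.05). The study's own tool, DESeq2 (version 1.42.0 here), was an alternative, beside its size factors, total counts, other filters, all 15 libraries in 1 fit, summed copies, removal of the 3 most abundant rows and leaving out each mouse. CPM per mouse used TMM factors of all 15 libraries. Standard errors and 95% intervals came from the quasi-likelihood F statistic. Shares were compared by exact permutation and correlations by 100000 permutations with scipy 1.17.1, two-sided. The scripts were tested on simulated data. Every member row with reads is named, those with more than 10 reads by group, and the 6 most abundant by mouse. Members, marker lists and the Myc list were chosen with earlier results of these data known.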

Additional observations from a re-analysis of the deposited data

Results flagged for a closer look

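Of 36 sets of 5 values (each of the 9 members with more than 10 reads, the summed mir-92a-3p level and the shares, in each group), 1 held a value apart from the rest. mir-18a-3p stood at 43.4 CPM (18 reads) in AGAT-/- mouse 6, whereas the next AGAT-/- mouse had 20.8 CPM and the lowest 12.5 CPM. The gap to its neighbour was 0.730 of the range of the group, above the critical value of Dixon's test for 5 samples, 0.71. Chance gives about 1 such value in 20 sets. The same mouse had the lowest level of mir-92a-1-5p, 116 CPM, and the lowest 5p share of mir-92a-1, 6.73%.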

How the results depend on the processing

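No member was called in any of the 3 comparisons under the 8 alternative settings or with any mouse left out, and the lowest FDR of a member under any setting was 0.184, for mir-18a-3p in AGAT-/-hArg against wt without AGAT-/-hArg mouse 12 (log2 fold change -1.05, edgeR). The filter of more than 10 reads in every library kept only mir-92a-2-3p, mir-92a-1-3p, mir-17-3p and mir-92a-1-5p. The remaining members could not be called in that setting. For mir-25-5p in AGAT-/-hArg against wt, DESeq2 gave no FDR. Of 394 alternative values of member log2 fold changes, 366 kept their direction and 28 turned it, 20 of them with a mouse left out, all for estimates that were not called. In AGAT-/- against wt, mir-92a-1-5p turned to 0.010 with total counts, 0.0062 with every row of at least 1 read and 0.0068 without the 3 most abundant miRNAs. With total counts, mir-92a-2-3p turned to 0.0018 and mir-92a-1-5p to 0.032 in AGAT-/-hArg against AGAT-/-, and mir-92a-2-3p to 0.054, mir-92a-1-3p to 0.043 and mir-92a-1-5p to 0.043 in AGAT-/-hArg against wt. The cause was not tested. Of 23 log2 fold changes, 13 turned direction with some mouse left out, 9 kept it but moved by more than 1.5 times and 1 moved less. The ranges of those that turned, in AGAT-/- against wt, went from -0.50 to 0.00080 for mir-18a-3p, -0.031 to 0.41 for mir-20a-3p, -0.016 to 0.12 for mir-92a-1-3p, -0.12 to 0.12 for mir-92a-1-5p and -0.069 to 0.11 for mir-92a-2-3p. For AGAT-/-hArg against AGAT-/- they were -0.89 to 0.043 for mir-18a-3p, -0.053 to 0.35 for mir-20a-3p, -0.085 to 0.63 for mir-25-5p, -0.14 to 0.072 for mir-92a-1-5p and -0.14 to 0.0017 for mir-92a-2-3p, and the 5p share of mir-92a-1 differed by -0.14 to 1.11 percentage points. For AGAT-/-hArg against wt they were -0.10 to 0.041 for mir-92a-1-3p, -0.14 to 0.015 for mir-92a-1-5p and -0.12 to 0.059 for mir-92a-2-3p, and -0.78 to 0.45 points for the 5p share. In AGAT-/- against wt the 5p share kept its direction but ranged from -1.27 (without wt mouse 1) to -0.063 points (without AGAT-/- mouse 6). Of the log2 fold changes that kept theirs, AGAT-/-hArg against wt ranged from 0.35 to 1.10 for mir-25-5p, 0.091 to 0.57 for mir-20a-3p, -1.05 to -0.28 for mir-18a-3p and 0.13 to 0.30 for mir-17-3p, AGAT-/- against wt from 0.020 to 0.17 for mir-17-3p and 0.23 to 0.76 for mir-25-5p, and AGAT-/-hArg against AGAT-/- from -0.16 to -0.068 for mir-92a-1-3p, 0.046 to 0.12 for mir-17-3p and -0.97 to -0.42 for mir-19a-5p.

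Of 39 levels of rows and units, 1 moved by more than its SD with total counts, the mir-17-92 unit in AGAT-/-hArg (2050.2 to 2144 CPM). Calls over all miRNAs ranged over 8 to 18 (main 12), 2 to 8 (4) and 10 to 28 (17) in the comparisons as ordered above. No paired analysis was possible because the groups share no mouse numbers and the labels tie no mouse to a litter.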
